A study of Caenorhabditis elegans with 78 samples.

Results

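Chromatin uses a small set of histones that are not tied to DNA replication, and the mRNAs of 10 genes for such proteins were examined in whole young adult *C. elegans* lacking functional histone demethylases. The 10 genes were listed by name and comprise the linker (H1) histone genes *his-24*, *hil-1*, *hil-2*, *hil-3*, *hil-4*, *hil-5* and *hil-7*, the H3.3 genes *his-71* and *his-72*, and the H2A.Z gene *htz-1*. They are 10 of the 42048 genes in the count tables, and all 10 were among the 15641 genes with enough counts to be tested. RNA sequencing of whole worms covered 24 libraries, 4 of each of 6 strains, grown at 25°C and collected in the F3 generation. The mutant strains were *jmjd-5(zr1234)*, *jmjd-1.2(zr1010)*, a triple mutant (shown as jmjd-3.1/2/3) in which *jmjd-3.1* carries *gk384*, *jmjd-3.2* carries *tm3121* and *jmjd-3.3* carries *tm3197*, a double mutant of *jmjd-5(zr1234)* and *jmjd-1.2(zr1010)*, and a quadruple mutant that joins *jmjd-5(zr1234)* to the 3 *jmjd-3* alleles. Wild-type (N2) animals were the control. The comparison asks how loss of *jmjd-5*, alone or with loss of the other demethylases, alters transcription. The *jmjd-5(zr1234)* allele carries point mutations in the catalytic JmjC domain, so that its transcript is still made, the compound strains were obtained by crossing, and each genotype is 1 strain. The animals are whole, so the RNA of germline and somatic cells was measured together, and fewer cells of a type and less RNA per cell cannot be told apart.

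Linker histones bind the DNA that enters and leaves the nucleosome and help to fold the chromatin fibre. *C. elegans* HIS-24 is an H1 known for a role in silencing in the germline, and the *hil* genes encode H1-like proteins. H3.3 is deposited throughout the cell cycle by dedicated chaperones, unlike the canonical H3 that is made in S phase, and H2A.Z is exchanged into nucleosomes near gene starts by a remodelling complex. Their mRNAs are polyadenylated, whereas canonical histone mRNAs of animals mostly are not.

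Library totals ranged from 3087933 to 9906241 counts. They were 6431200 to 7565222 in *jmjd-5*, 6370996 to 9906241 in *jmjd-1.2*, 5707480 to 6757902 in the triple mutant, 3751667 to 8524294 in the double mutant, 3087933 to 9114419 in the quadruple mutant and 3927979 to 6372354 in N2, which had the lowest median. *jmjd-5* libraries 3 and 4, and N2 libraries 2 and 4, differed by no more than sampling noise, with a mean chi-square per gene of 1.03 and 0.976. The other pairs had 1.11 to 1.74 in *jmjd-5* and 1.97 to 4.47 in N2. *jmjd-5* libraries 1 and 4, at 1.11, lay just over the limit of 1.1 and were kept apart. Each pair within sampling noise was summed and counted as 1 culture. This leaves 22 cultures, 3 of *jmjd-5*, 3 of N2 and 4 of every other strain. Counts of *jmjd-1.2* were 1 to 3 in *jmjd-1.2* mutants and 1 to 13 in double mutants, against 896 to 1488 in N2. The whole-gene counts of *jmjd-5* (473 to 521 in *jmjd-5*, 287 to 513 in N2) cannot check a point mutation, nor could the *jmjd-3* deletions be seen in whole-gene counts, which in the triple mutant and N2 were 116 to 198 and 61 to 144 for *jmjd-3.1*, 3 to 10 and 5 to 13 for *jmjd-3.2*, and 11 to 18 and 11 to 27 for *jmjd-3.3*. Marker lists of the germline, oocytes, sperm, intestine, muscle, neurons, hypodermis and pharynx had no gene at 0 in any strain. The paper describes 4 independent cultures of each strain, whereas each summed pair was counted here as 1.

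The depth behind the 10 genes was uneven. Over the 24 libraries *hil-4* had 496 to 1154 counts and *hil-5* had 541 to 1098, while *his-72* had 350 to 736, *htz-1* 329 to 705, *his-71* 169 to 502 and *hil-2* 134 to 551. The other linker genes were counted less: *hil-1* had 45 to 267 counts, *his-24* 30 to 215 and *hil-3* 15 to 161. *hil-7* had only 1 to 41 counts per library, so its ratios rest on few reads. Levels below are in CPM, counts scaled to a common library size, after TMM, a normalization of edgeR that evens out library composition. They are not divided by gene length, so levels are compared between strains and not between genes.

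**Figure D1:**
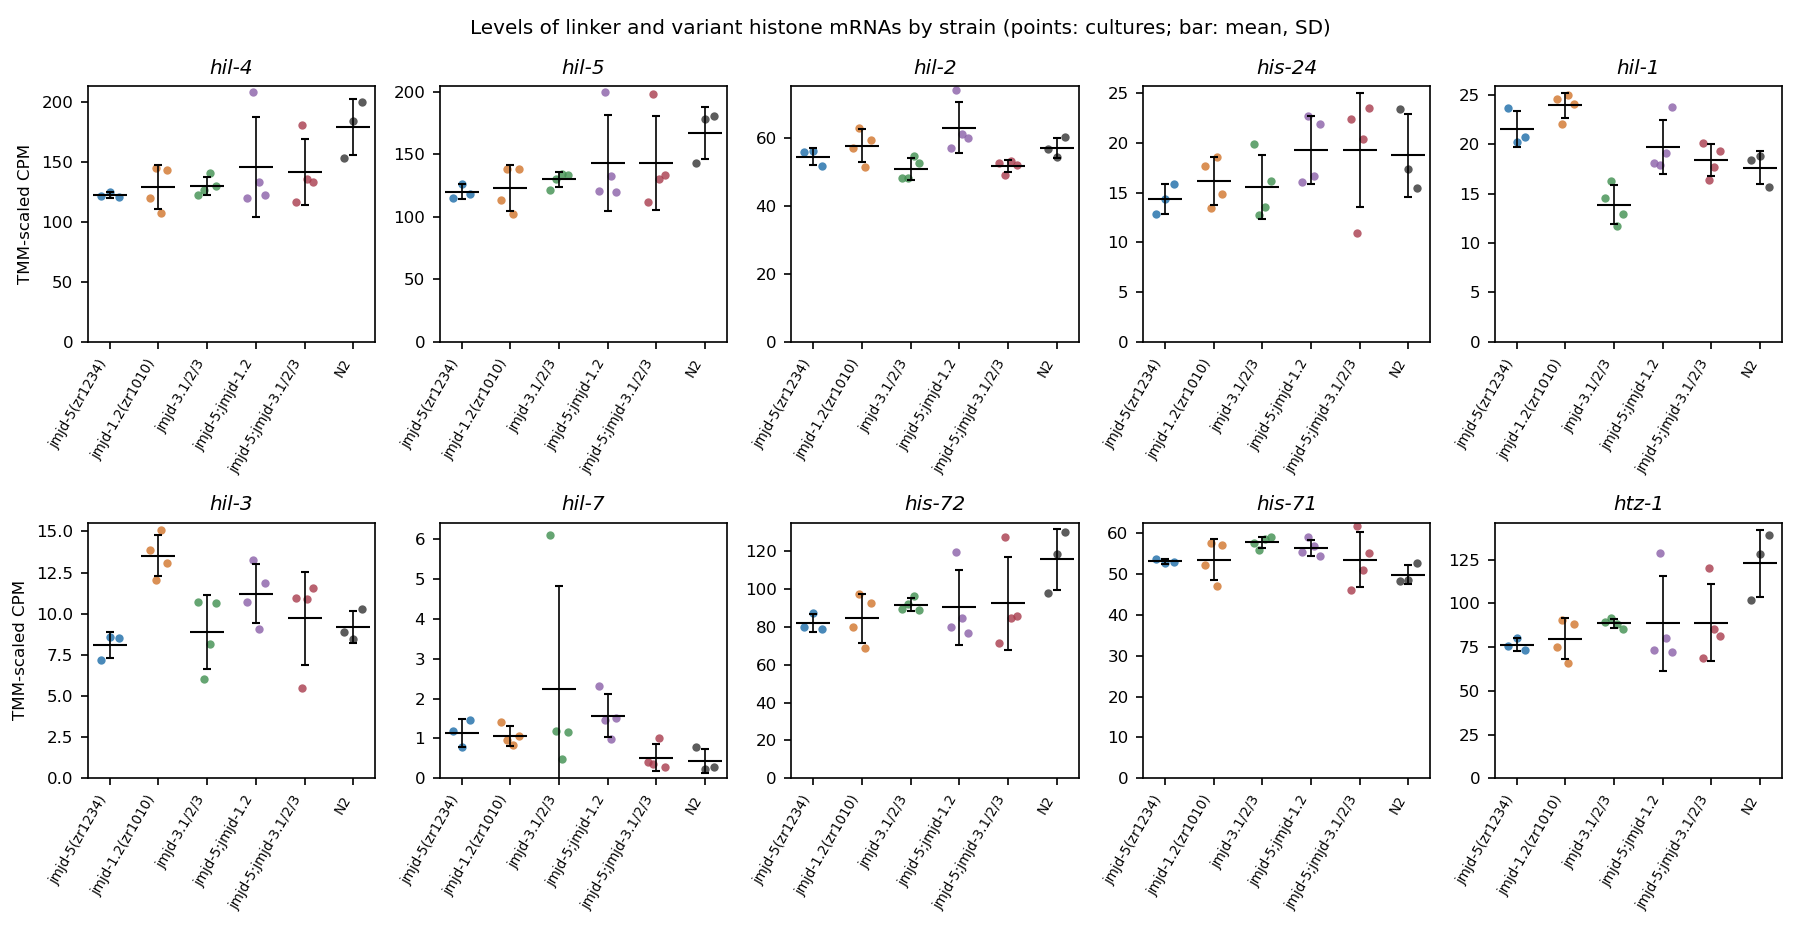
TMM-scaled CPM of each of the 10 genes (panels, each axis starting at 0) in 5 mutant strains and in N2 at the right. Points are cultures, and the bar and whiskers are the mean and SD (n = 3 for jmjd-5(zr1234) and N2, n = 4 for the other strains). The lower whisker of *hil-7* in jmjd-3.1/2/3 runs below 0 and ends at the axis. *htz-1*, *hil-4*, *hil-5* and *his-72* have their highest mean in N2, and in both compound mutants 1 culture of each of these genes stands above the other 3.

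*htz-1*, the only H2A.Z gene of the worm, had a lower mean in each of the 5 mutants than in N2, and the difference passed the test in 2 of them. Its level was 75.7, 80.3 and 73.5 CPM in the *jmjd-5* cultures, against 102, 128 and 139 CPM in the N2 cultures. It was 74.8, 90.7, 65.9 and 88.1 CPM in *jmjd-1.2* mutants and 89.4, 91.5, 88.2 and 85.3 CPM in triple mutants. All cultures of these 3 mutants were below all N2 cultures. The double mutant cultures had 73.1, 128.7, 80.2 and 72.2 CPM, and the quadruple mutant cultures 68.7, 120.2, 85.6 and 81.4 CPM. In both compound strains culture 2 lay within the N2 range and the other 3 cultures below it. *htz-1* fell in *jmjd-5* by 0.68 on the log2 scale (SE 0.19) and in *jmjd-1.2* by 0.62 (SE 0.17), with Benjamini-Hochberg adjusted p = 0.00369 and 0.00712 in edgeR's quasi-likelihood test. A gene is said here to rise or fall where this adjusted p, taken over all 15641 genes, was under 0.01. The differences of -0.47 in the triple mutant (adjusted p = 0.032), -0.50 in the double mutant (0.0203) and -0.49 in the quadruple mutant (0.0335) did not pass. Leaving out 1 culture at a time kept the direction, with *jmjd-5* values of -0.83 to -0.58 and *jmjd-1.2* values of -0.76 to -0.53. The *jmjd-5* call was lost without *jmjd-5* culture 1 (adjusted p = 0.0131), summed *jmjd-5* cultures 3 and 4 (0.0151), summed N2 cultures 2 and 4 (0.0167) or N2 culture 3 (0.0255). The *jmjd-1.2* call was lost without *jmjd-1.2* culture 1 (0.026), 3 (0.0281) or 4 (0.0117), without summed N2 cultures 2 and 4 (0.0408) or without N2 culture 3 (0.0457).

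The linker histone genes *hil-4* and *hil-5* showed a like arrangement of cultures. *hil-4* had 122, 125 and 121 CPM in *jmjd-5*, against 154, 184 and 200.3 CPM in N2. It fell by 0.55 on the log2 scale in *jmjd-5* (SE 0.17, adjusted p = 0.0097, edgeR). The difference was -0.47 in *jmjd-1.2* (adjusted p = 0.0213) and -0.46 in the triple mutant (0.0233), neither of which passed, although no culture of either strain reached the N2 range. The call in *jmjd-5* was lost when any culture other than N2 culture 1 was left out: without *jmjd-5* culture 1 the adjusted p was 0.0272, without culture 2 it was 0.0219, without summed cultures 3 and 4 it was 0.0268, without summed N2 cultures 2 and 4 it was 0.031, and without N2 culture 3 it was 0.0581. *hil-5* had 115, 127 and 118 CPM in *jmjd-5*, against 143, 178 and 181 CPM in N2. Its difference from N2 was -0.48 in *jmjd-5* (adjusted p = 0.0279) and -0.44 in *jmjd-1.2* (0.0374), again without overlap of cultures and without passing the test. In the double mutant culture 2 had 208.5 CPM of *hil-4* and 199.6 CPM of *hil-5*, while the other 3 cultures had 120.3 to 133.5 and 119.5 to 132.3 CPM. Quadruple mutant culture 2 likewise had 181 CPM of *hil-4* and 198 CPM of *hil-5*, and the remaining cultures at most 136 and 134 CPM.

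The H3.3 genes differed from each other. *his-72* had 80.0, 87.7 and 79.1 CPM in *jmjd-5*, against 98.2, 118.6 and 130.5 CPM in N2. Its cultures in *jmjd-5*, *jmjd-1.2* and the triple mutant were all below those of N2, but the differences, -0.49 in *jmjd-5* (adjusted p = 0.0174) and -0.45 in *jmjd-1.2* (0.0258) among them, did not pass. *his-71*, the other H3.3 gene of the 10, had no lower mean in any mutant: it had 53.7, 52.6 and 53.0 CPM in *jmjd-5*, against 48.3, 48.6 and 52.6 CPM in N2. Its triple mutant cultures had 55.8 to 58.9 CPM and its double mutant cultures 54.3 to 58.9 CPM, above all 3 N2 cultures. The difference of 0.22 in the triple mutant (adjusted p = 0.0323) was the nearest to passing. *his-71* was the 1 gene for which neighbouring strains in the order of mean levels did not overlap, *jmjd-5* (53.1 ± 0.551 CPM, SD, n = 3) standing just above N2 (49.8 ± 2.38 CPM, SD, n = 3). For the other 9 genes the cultures of every strain overlapped those of the next strain in that order. The gap of *his-71* was slight, from 52.56 CPM in the highest N2 culture to 52.57 CPM in the lowest *jmjd-5* culture. With the 24 libraries kept apart the strains overlapped, *jmjd-5* library 2 having 51.91 CPM and N2 library 3 52.95 CPM. Its difference of 0.10 in *jmjd-5* did not pass (adjusted p = 0.318, edgeR), and 40.3% of all genes were higher in *jmjd-5* without overlap.

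Among the less abundantly counted linker histones, *hil-1* rose in *jmjd-1.2*. It had 24.7, 22.1, 25.0 and 24.1 CPM there, against 18.4, 18.9 and 15.7 CPM in N2, a log2 difference of 0.43 (SE 0.12, adjusted p = 0.00756, edgeR). All 4 cultures were above those of N2. With 1 culture left out the difference was 0.37 to 0.47, and the call was kept only without *jmjd-1.2* culture 2 (adjusted p = 0.0058). It was lost without *jmjd-1.2* culture 1 (0.0200), 3 (0.0274) or 4 (0.0128), and without N2 culture 1 (0.0194), summed cultures 2 and 4 (0.0237) or culture 3 (0.0366). In the triple mutant *hil-1* stood on the other side of N2, with 14.6, 16.3, 11.7 and 13.0 CPM, but its difference of -0.36 did not pass (adjusted p = 0.0229). *hil-3* had 13.9, 12.1, 15.1 and 13.1 CPM in *jmjd-1.2*, against 8.87, 8.44 and 10.3 CPM in N2, with a difference of 0.59 that did not pass (adjusted p = 0.0176). *hil-2* averaged 51 to 63 CPM in every strain, N2 with 57.0 ± 3.04 CPM (SD, n = 3) included, and passed in no comparison. *his-24* averaged 14.3 ± 1.52 CPM in *jmjd-5* and 18.7 ± 4.19 CPM in N2 (SD, n = 3 each), and also passed in none. At the annotated locus of *his-24* lie the non-coding RNA genes M163.19 and M163.16, mir-8201 overlaps *hil-2*, and the small nucleolar RNA gene Y49E10.36 overlaps *his-72*. The counting was run with default settings, which ignore strand, so that reads in such overlaps cannot be assigned by strand.

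*hil-7* was at the limit of detection. Its counts were 9, 5 and 22 in *jmjd-5*, 12, 6, 9 and 7 in *jmjd-1.2*, 41, 7, 3 and 8 in the triple mutant, 19, 5, 7 and 14 in the double mutant, 4, 1, 7 and 2 in the quadruple mutant, and 5, 2 and 1 in N2. Triple mutant culture 1 therefore held 41 of the 59 counts of that strain. The log2 difference of the triple mutant from N2 was 2.35 and did not pass (adjusted p = 0.0164).

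**Figure D2:**
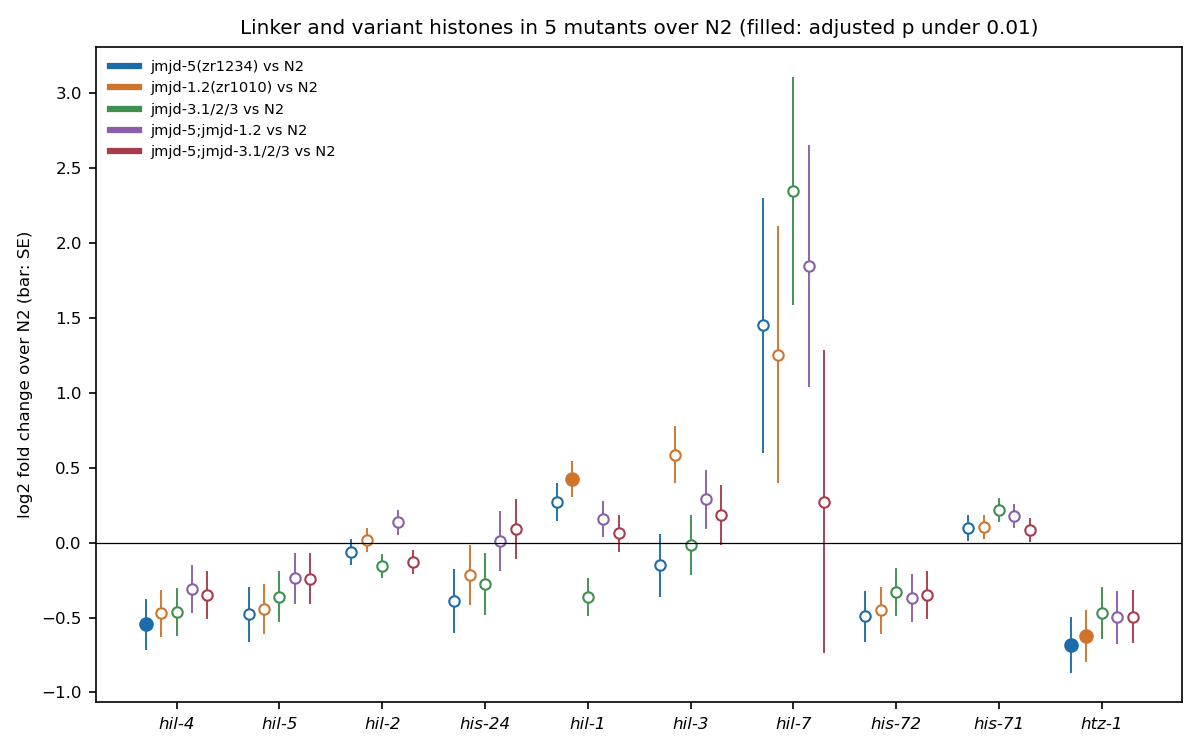
Log2 fold change (vertical axis) of each of the 10 genes in each of 5 mutants over N2, with its SE, from edgeR. Filled points have an adjusted p under 0.01. They are *hil-4* and *htz-1* in jmjd-5(zr1234) and *hil-1* and *htz-1* in jmjd-1.2(zr1010), and *hil-7* has the widest errors.

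Counted over the 10 genes, 0 rose and 2 fell in *jmjd-5* (*htz-1* and *hil-4*), where 28.6% of all genes tested rose and 17.3% fell. In *jmjd-1.2* 1 gene rose (*hil-1*) and 1 fell (*htz-1*), where 19.2% of all genes rose and 6.82% fell. In the triple mutant 0 of the 10 passed, where 20.1% of all genes rose and 10.5% fell. The count was also 0 in the double mutant, where 26.9% of all genes rose and 12.8% fell, and in the quadruple mutant, where 16.9% rose and 4.07% fell. DESeq2 passed 1, 0 and 0 genes in these 3 mutants. At an unadjusted p under 0.05 in edgeR the 5 comparisons held 5, 6, 6, 4 and 3 of the 10 genes, in the order *jmjd-5*, *jmjd-1.2*, triple, double, quadruple. The counts of passing genes were thus small, and near or below the background shares.

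At an adjusted p under 0.05, 0 genes were higher and 4 lower in *jmjd-5* (background 35.8% and 26.2%), and 2 were higher and 4 lower in *jmjd-1.2* (28.2% and 20.1%). The triple mutant had 2 higher and 3 lower (27.1% and 19.6%), the double mutant 0 and 1 (33.0% and 22.1%) and the quadruple mutant 0 and 1 (24.8% and 9.88%). None of the 10 both passed and differed from N2 by 1 or more on the log2 scale, up or down, which 17.5% of all genes did in *jmjd-5*, 8.75% in *jmjd-1.2*, 10.8% in the triple mutant, 17.6% in the double mutant and 7.53% in the quadruple mutant. *hil-7*, with log2 differences of 1.45 in *jmjd-5*, 1.26 in *jmjd-1.2*, 2.35 in the triple and 1.85 in the double mutant, exceeded that size without passing.

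Cultures of *jmjd-5* and N2 did not overlap for 2 genes higher in *jmjd-5* (*hil-1* and *his-71*, background 40.3%) and 4 lower (*hil-4*, *hil-5*, *his-72* and *htz-1*, background 34.2%). The same 4 genes were lower without overlap in *jmjd-1.2* (background 24.3%) and the triple mutant (25.6%). In the double mutant 0 of the 10 were lower without overlap (background 15.7%), and in the quadruple mutant 1 was, *hil-2* (11.5%). Higher without overlap were 3 genes in *jmjd-1.2* (*hil-1*, *hil-3* and *hil-7*, background 28.5%), *his-71* in the triple mutant (28.1%), *hil-7* and *his-71* in the double mutant (26.4%) and 0 in the quadruple mutant (23.9%). The median log2 difference of the 10 genes was -0.27 in *jmjd-5*, -0.10 in *jmjd-1.2*, -0.30 in the triple mutant, 0.07 in the double mutant and -0.03 in the quadruple mutant, beside medians of all tested genes of 0.09, 0.07, 0.01, 0.05 and 0.07.

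The levels of *htz-1*, *hil-4*, *hil-5* and *his-72* moved with the total of the library. *htz-1* was highest in the shallowest library and lowest in the deepest library of its strain in 6 of 6 strains. *his-72* was highest in the shallowest library in 5 strains and lowest in the deepest in all 6. *hil-4* and *hil-5* were each highest in the shallowest in 5 strains and lowest in the deepest in 4. Of all genes tested, 5.735% were highest in the shallowest library in all 6 strains and 1.797% were lowest in the deepest in all 6. In at least 5 strains 13.18% were highest in the shallowest and 8.299% lowest in the deepest. When the log2 total was added to the strain as a term, CPM per doubling of the total changed on the log2 scale by -0.61 for *htz-1* (SE 0.037), -0.58 for *hil-5* (SE 0.0356), -0.56 for *his-72* (SE 0.0312), -0.53 for *hil-4* (SE 0.0447) and -0.21 for *his-71* (SE 0.0472). All 5 slopes passed, the highest adjusted p being 0.00135 for *his-71* (edgeR, Benjamini-Hochberg), where 20.5% of all genes fell and 12.8% rose with depth. The other 5 genes had slopes that did not pass. The authors removed PCR duplicates by position before counting, and the part of that step in these slopes was not tested. N2 had the lowest median total, so that depth and strain are partly confounded.

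**Figure D3:**
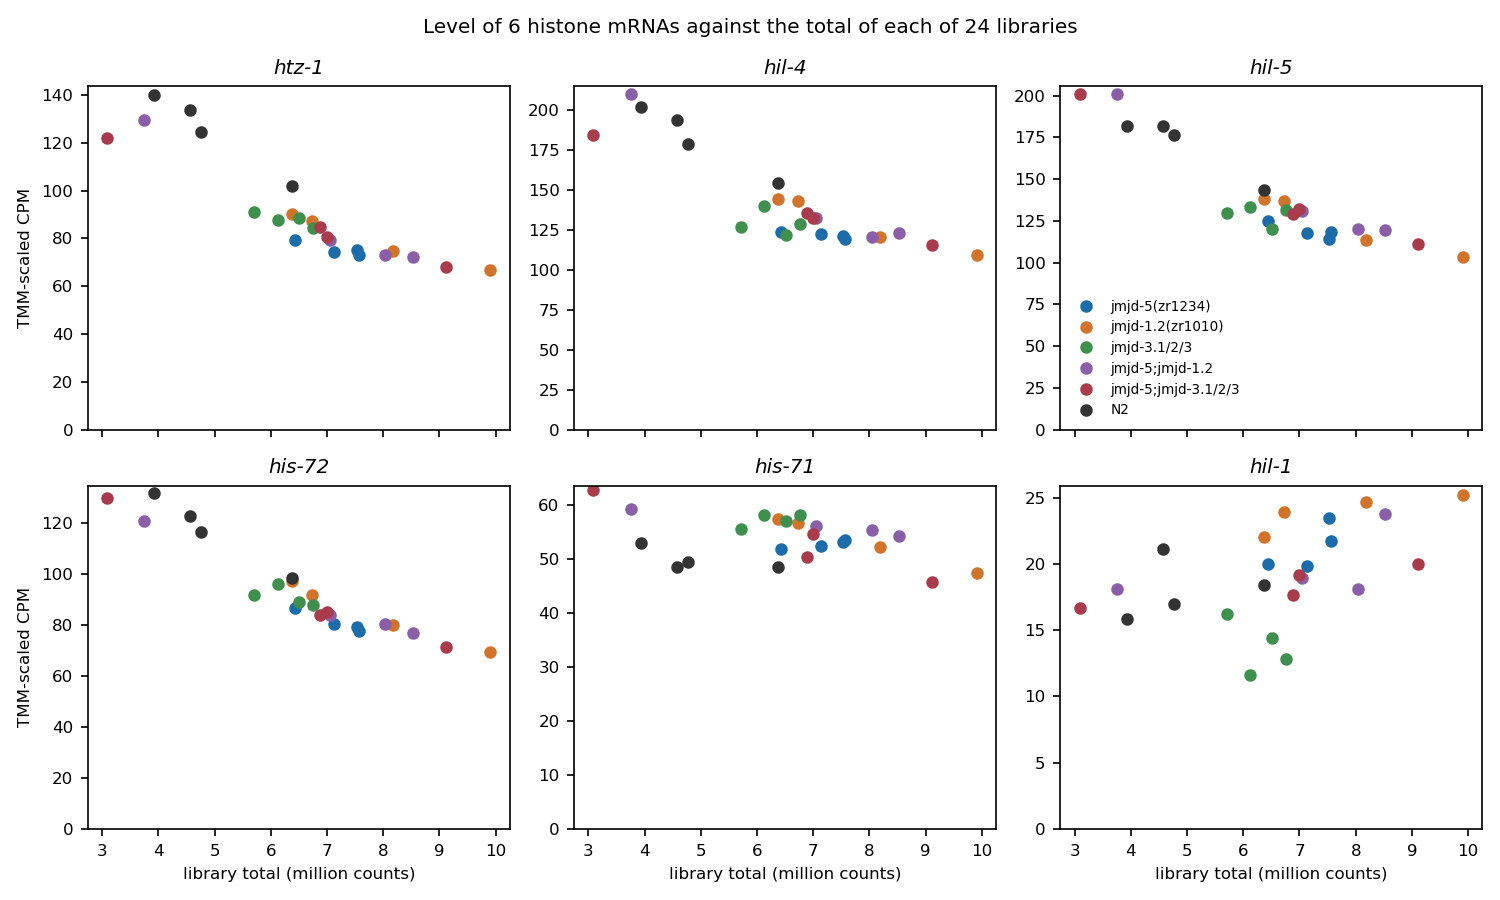
TMM-scaled CPM (vertical axis, from 0) of 6 of the genes against the total counts of each of the 24 libraries, coloured by strain. *htz-1*, *hil-4*, *hil-5* and *his-72* decline with the total across strains, *his-71* declines little, and *hil-1* separates strains more than depths. The black N2 points lie mostly at low totals.

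With the total as a term, *htz-1* was still lower than N2 in all 5 mutants, and by less. Its log2 difference was -0.35 in *jmjd-5* (adjusted p = 7.1e-06), -0.23 in *jmjd-1.2* (0.0017), -0.25 in the triple mutant (0.000181), -0.26 in the double mutant (9.67e-05) and -0.29 in the quadruple mutant (8.4e-05). In this fit 21.3%, 5.70%, 17.9%, 18.7% and 8.54% of all genes were lower in these mutants. *htz-1* was the 1 gene of the 10 that passed in every mutant in this fit, while *hil-4*, *hil-5*, *his-72* and *his-24* also had differences below 0 in all 5 without passing in all. *hil-4* was lower in *jmjd-5* (-0.25, adjusted p = 0.00146) and the triple mutant (-0.27, 0.000665), as was *hil-5* (-0.17, 0.00619, and -0.16, 0.00743). *his-72* was lower in *jmjd-5* (-0.19, 0.000768) and the quadruple mutant (-0.17, 0.00248). *his-71* was higher in *jmjd-5* (0.21, adjusted p = 0.00732), *jmjd-1.2* (0.23, 0.00838), the triple mutant (0.29, 0.000355) and the double mutant (0.28, 0.00058), where 25.6%, 11.6%, 20.7% and 24.3% of all genes were higher. Its difference of 0.16 in the quadruple mutant did not pass (0.0411, background 15.1%). The call of *hil-1* in *jmjd-1.2* was not kept with the total as a term (0.29, adjusted p = 0.0694), whereas its lower level in the triple mutant passed (-0.43, 0.00401).

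The deepest N2 library, culture 1, can be set directly against mutant libraries of like depth, of which 11 had totals within 15% of it. *htz-1* had 74.2 to 91.1 CPM in these 11 mutant libraries and 102 CPM in N2 culture 1. *hil-4* had 122 to 144 CPM against 154 CPM, *hil-5* 118 to 138 against 143 CPM, and *his-72* 80.5 to 97.0 against 98.5 CPM. *his-24* had 12.7 to 23.2 against 23.5 CPM. For each of these 5 genes all 11 mutant libraries were below the N2 library. How many of all genes lay wholly below or above this N2 library was not counted. For *his-24* the other N2 cultures had 17.35 and 15.43 CPM, inside the range of the mutant libraries. *his-71* had 50.4 to 58.2 CPM in the 11 mutant libraries, all above the 48.5 CPM of N2 culture 1. Only 1 N2 library and 1 double mutant library enter this comparison, so that a fit to these 12 libraries takes its spread from the other strains and assumes that N2 varies as they do. Under that assumption *htz-1* (-0.42, adjusted p = 0.00147) and *hil-4* (-0.33, 0.00569) passed in *jmjd-5*, where 9.58% of all genes were lower, but no N2 spread stands behind these values. None of the 10 passed in *jmjd-1.2*, the triple, the double or the quadruple mutant, where 0.540%, 3.31%, 3.31% and 0.873% of all genes were lower. Leaving out instead the 3 libraries under 4000000 counts (culture 2 of both compound mutants and N2 culture 3) gave lower *htz-1* in all 5 mutants, by -0.45 in the triple mutant to -0.73 in the double mutant, and lower *hil-4* in all 5, by -0.44 in *jmjd-1.2* to -0.57 in *jmjd-5*. With these libraries left out, 29.7% of all genes were lower in *jmjd-5*, 17.5% in *jmjd-1.2*, 18.6% in the triple mutant, 31.1% in the double mutant and 18.1% in the quadruple mutant. *hil-5* and *his-72* were then lower in every mutant but the triple, where their adjusted p was 0.0105 and 0.0277. In the same fit *his-24* was lower in *jmjd-5* (-0.57, 0.00615), *hil-1* lower in the triple mutant (-0.49, 0.00359) and *hil-3* higher in *jmjd-1.2* (0.61, 0.00493), where 20.1% of all genes were higher. The call of *hil-1* in *jmjd-1.2* was lost (0.31, 0.0342).

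**Figure D4:**
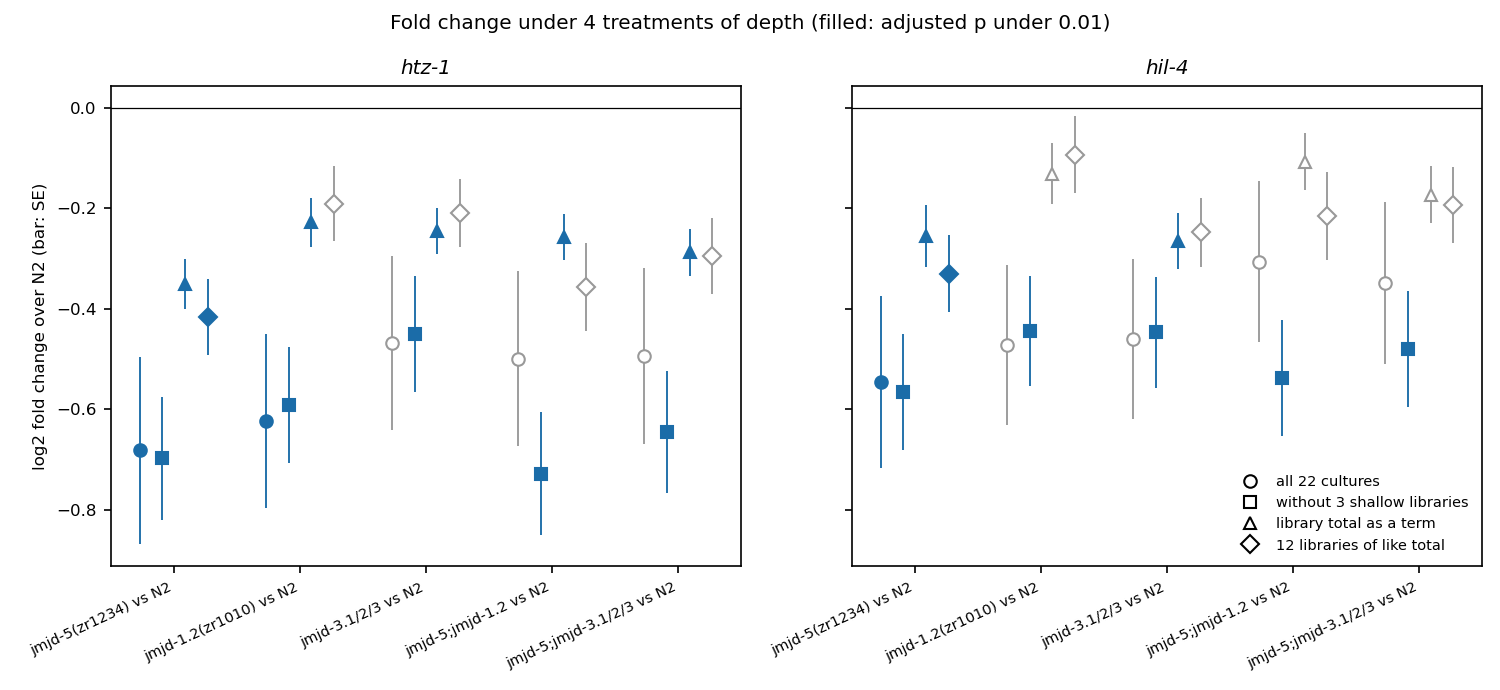
Log2 fold change over N2 (vertical axis, bar: SE) of *htz-1* and *hil-4* in each of 5 mutants, fitted with all 22 cultures, without the 3 libraries under 4000000 counts, with the library total as a term, and with only the 12 libraries of like total. Filled points have an adjusted p under 0.01. All values are below 0, and *htz-1* passes in all 5 mutants in the second and the third of these fits.

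Setting the compound mutants against *jmjd-5* asks what loss of the other demethylases adds. In this comparison 0 of the 10 genes passed in the double mutant, where 0.454% of all genes rose and 0.742% fell, and 0 in the quadruple mutant, where 2.79% rose and 2.11% fell, in edgeR as in DESeq2. At an unadjusted p under 0.05 there were 2 and 1 genes. The 10 log2 differences ran from -0.11 to 0.44 in the double mutant and from -1.18 to 0.48 in the quadruple mutant, where *hil-7* was lowest. An interaction term, the difference between a compound mutant and the sum of the effects of its parent genotypes over N2, was also fitted. For *jmjd-5* with *jmjd-1.2*, 0 of the 10 genes passed (0 in DESeq2), where 3.46% of all genes had a positive and 9.26% a negative term that did, and 6 had an unadjusted p under 0.05. The values nearest to passing were 0.81 for *htz-1* (adjusted p = 0.019), -0.54 for *hil-1* (0.0192) and 0.71 for *hil-4* (0.0226). With *hil-5* these make 3 positive terms and 1 negative at an adjusted p under 0.05, where 12.7% and 20.9% of all genes were. For *jmjd-5* with the 3 *jmjd-3* genes, *hil-7* alone passed, at -3.52 (SE 1.07, adjusted p = 0.00959), where 13.5% of all genes had a positive and 21.6% a negative term that passed, and 17.7% also had a size of at least 1. Without triple mutant culture 1, which held most of the counts, it was -2.30 and did not pass (0.0149). It was also lost without any 1 of the *jmjd-5* cultures, without quadruple mutant culture 1, 2 or 4, without summed N2 cultures 2 and 4 or without N2 culture 3, at adjusted p values of 0.0104 to 0.0411. *hil-4* (0.66, adjusted p = 0.0207) and *htz-1* (0.66, 0.0318) did not pass there, and at an adjusted p under 0.05 there were 4 positive terms and 1 negative, beside 22.7% and 29.4% of all genes. Comparisons with N2 share the N2 cultures, and those with *jmjd-5* share the *jmjd-5* cultures.

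Of the remaining linker and variant histone genes, *hil-8*, *his-70*, *his-74*, *his-35*, *hcp-3* and *cpar-1* could be tested, while *hil-6* and *his-69* had too few counts. *his-70*, an H3.3-type gene, had the opposite direction to *his-72*: it averaged 23.3 ± 1.12 CPM in *jmjd-5* and 10.8 ± 2.25 CPM in N2 (SD, n = 3 each) and rose in all 5 mutants. Its log2 fold change was 1.17 in *jmjd-5* (adjusted p = 2.153e-06), 0.76 in *jmjd-1.2* (0.000406), 1.18 in the triple mutant (3.582e-06), 1.34 in the double mutant (2.109e-07) and 1.06 in the quadruple mutant (2.166e-05). In these mutants 28.6%, 19.2%, 20.1%, 26.9% and 16.9% of all genes rose. *his-70* also passed in all 5 with the total as a term, at 0.71 to 1.32. At like totals its difference was 0.648 in *jmjd-1.2* to 1.25 in the double mutant. *hcp-3*, which encodes the centromeric H3 variant CENP-A, averaged 78.5 ± 2.72 CPM in *jmjd-5* and 111 ± 5.32 CPM in N2 (SD, n = 3 each) and fell in all 5 mutants. Its log2 differences were -0.51 in *jmjd-5* to -0.32 in the double mutant, and -0.39 to -0.23 with the total as a term, where all 5 passed. At like totals they were -0.499 in *jmjd-5* to -0.285 in *jmjd-1.2*. In the fit as reported 17.3%, 6.82%, 10.5%, 12.8% and 4.07% of all genes fell in *jmjd-5*, *jmjd-1.2* and the triple, double and quadruple mutants. The related *cpar-1* fell in *jmjd-5* (-0.62), the triple mutant (-0.40) and the double mutant (-0.42), and *his-74* fell in *jmjd-5* (-0.57) and *jmjd-1.2* (-0.59). With the total as a term the *cpar-1* calls were kept and *his-74* was lower in all 5 mutants, by -0.14 in the triple to -0.27 in the double mutant. At like totals *cpar-1* was -0.659 in *jmjd-5*, -0.44 in the triple and -0.531 in the double mutant. *his-74* was there -0.129 in the triple to -0.362 in the double mutant. Only 1 N2 library enters the fit at like totals, so whether these genes pass there is not judged. *hil-8* had only 1 to 42 counts per library, so its ratios rest on few reads. It rose in the double mutant (0.80, adjusted p = 0.00753, edgeR). This call was lost with the total as a term (0.57, 0.0518) and without the libraries under 4000000 counts (0.63, 0.0178). At like totals the difference was 0.89. The quadruple mutant set against *jmjd-5* had less *hil-8* (-1.28, 0.00254). *his-35*, an H2A gene, passed in none of these comparisons.

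**Figure D5:**
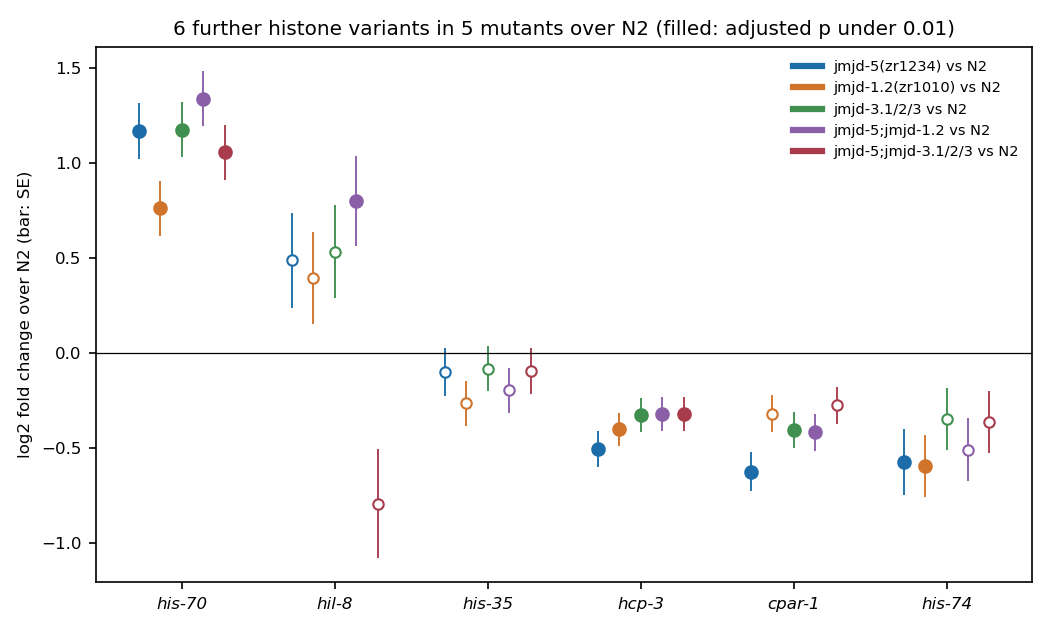
Log2 fold change (vertical axis, bar: SE) of 6 further linker and variant histone genes in each of 5 mutants over N2, from edgeR. Filled points have an adjusted p under 0.01. *his-70* lies above 0 and filled in all 5 mutants and *hcp-3* below 0 and filled in all 5.

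Genes that handle the variants were counted from lists. Of 14 tested chaperones of H3.3, H3-H4 and CENP-A, 9 fell and 0 rose in *jmjd-5*, with a median log2 difference of -0.44. Among them were *lin-53*, an RbAp46/48 homologue (170.4 ± 5.06 CPM in *jmjd-5* and 257 ± 30.0 CPM in N2, SD, n = 3 each, -0.59, adjusted p = 0.00232), and *asfl-1*, an ASF1 homologue (-0.56, 1.867e-05). Of the 9 genes of the H2A.Z exchange and TIP60 complexes, 5 fell and 0 rose in *jmjd-5*, with a median of -0.28, the lowest being *zhit-1* (-0.58, 1.856e-05) and *ruvb-1* (-0.45, 0.000955). The share of all genes that fell in *jmjd-5* was 17.3%. Of the chaperones 4 fell in *jmjd-1.2*, 3 in the triple, 3 in the double and 1 in the quadruple mutant, and of the exchange genes 3, 3, 2 and 0, where 6.82%, 10.5%, 12.8% and 4.07% of all genes fell. All 14 tested genes of DNA replication and histone mRNA binding fell in *jmjd-5*, with a median of -0.62, and 7, 11, 11 and 2 of the 14 fell in *jmjd-1.2* and the triple, double and quadruple mutants. With the total as a term the 3 lists held 10, 5 and 14 genes lower in *jmjd-5*, where 21.3% of all genes were lower.

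Markers of cell types were counted in *jmjd-5* over N2, where 28.6% of all genes rose and 17.3% fell. Of 18 germline genes 5 fell and 0 rose in *jmjd-5*, and their summed level was 4587 to 4879 CPM in *jmjd-5* and 5434 to 6704 CPM in N2. Of 12 oocyte and eggshell genes 6 fell and 0 rose, with sums of 3586 to 3842 CPM in *jmjd-5* and 4847 to 6448 CPM in N2. All 10 sperm genes rose, with sums of 662 to 683 CPM in *jmjd-5* and 310 to 414 CPM in N2, and no defining marker of the 3 lists was at 0. With the total as a term 11 germline and 11 oocyte genes were lower and all 10 sperm genes higher. In that fit 21.3% of all genes were lower and 25.6% higher. Of the somatic markers, 6 of 9 hypodermis and cuticle genes rose and 1 fell, with sums of 941 to 1013 CPM in *jmjd-5* and 623 to 887 CPM in N2. Among the others, 5 of 10 neuron, 3 of 9 muscle and 1 of 6 pharynx genes rose and none fell, and of 9 intestine genes 1 rose and 1 fell. The muscle list nevertheless had a median log2 difference of -0.16 (-0.47 to 1.24). The medians were 0.33 for neuron, 0.75 for pharynx and 0.05 for intestine genes. The part of these markers in the levels of *htz-1*, *hil-4* and the other histone genes was not tested. In double mutant culture 2, a shallow library where *htz-1*, *hil-4* and *hil-5* were high, the oocyte sum reached 6294 CPM, the highest of that strain. The oocyte list was not alone in ranging widely over the double mutant cultures. Germline sums were 4080 to 6179 CPM and muscle sums 3464 to 5882 CPM, while neuron sums were 678.6 to 721.1 CPM. How these sums relate to the histone levels was not tested.

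Canonical histone genes had few counts in these libraries, which were made from poly-A RNA and counted after reads with several matches were discarded. The part of either step was not tested. Of 65 genes named *his* with a number, outside the variants, 36 had no count in any library and 19 could be tested. Of these 19, 5 fell and 0 rose in *jmjd-5*, where 17.3% of all genes fell and 28.6% rose. Their median log2 difference was -0.59. The 3 with the most counts were *his-41* (67.3 ± 2.90 CPM in *jmjd-5* and 73.0 ± 7.46 CPM in N2, SD, n = 3 each) and *his-37* (57.3 ± 1.98 and 62.4 ± 6.76 CPM), neither of which passed, and *his-38*, which fell to 11.0 ± 0.763 CPM in *jmjd-5*, against 25.0 ± 1.57 CPM in N2 (-1.17, adjusted p = 2.768e-07).

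The genes whose levels followed those of the histones most closely were found from the root mean square difference of log2 CPM, centred for each gene, over the 22 cultures. This is a description, since these cultures share libraries and depth. The nearest gene to *his-72* was *dnj-19*, a DnaJ-type gene, at 0.0294, that to *hil-4* was *hsp-110*, an Hsp110-type chaperone gene, at 0.0433, that to *hil-5* was *sti-1*, named after a yeast co-chaperone of Hsp90, at 0.0449, and that to *htz-1* was the proteasome subunit gene *pbs-3* at 0.0517. *hil-4* and *hil-5* were at 0.0571 from each other, with 4 genes nearer to *hil-4* than that, and *htz-1* and *his-72* were at 0.0741. *his-71* was nearest to C26B9.5 at 0.0564 and *hil-2* to Y43F8B.2 at 0.0759. The less counted genes had no gene as near: *hil-1* was at 0.165 from F38E9.1, *his-24* at 0.208 from *sto-4*, *hil-3* at 0.214 from *mab-20* and *hil-7* at 0.513 from Y47D3B.3. For comparison, the median gene was at 0.441 from *htz-1* and at 0.404 from *hil-4*.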

How the data were processed

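The authors aligned poly-A RNA reads to ce10 with STAR, kept reads with a single match, took out PCR duplicates by means of samblaster and deposited counts per gene made by featureCounts (program versions are not given in the sources used here). The deposited counts were not normalized. Whole-worm RNA tables were used here. RNA of isolated germlines and ChIP data were not analysed here.

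Counts were tested with edgeR 4.0.16 in R 4.3.3 (TMM, filterByExpr by strain, quasi-likelihood test, Benjamini-Hochberg adjustment over 15641 genes), with all cultures in 1 fit and strain as the only term. Pairs of libraries of a strain were summed where their mean chi-square per gene (over genes with at least 10 counts in the pair) was under 1.1 while another pair of that strain exceeded 1.5. Of 36 pairs, 2 were summed. Alternatives used DESeq2 1.42.0, limma 3.58.1, library totals without TMM, other filters, thresholds and samples, left-out cultures, a replicate block, and terms or subsets for depth. Tables were handled with Python 3.11.15 and pandas 2.3.3.

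The test was tested on simulated counts for *jmjd-5* against N2 with 14894 genes: it recovered 59 of 100 genes changed 1.5-fold and 100 of 100 changed 3-fold, and passed 1 unchanged gene. The changed genes were drawn from those above a minimum level, and no effect of library total on levels was simulated. In the data 28.6% of genes rose and 17.3% fell in *jmjd-5*, and levels moved with the total. The count of unchanged genes that passed therefore does not carry over to the data. Samples were grouped by the strain in their labels.

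The 10 genes and the lists were chosen with earlier results of these data known. All 10 genes are named. Of each other list the 2 largest increases and the 2 largest decreases in *jmjd-5* against N2 with an adjusted p under 0.01 were eligible for naming, of canonical histone genes the 3 with the most counts, and for each of the 10 the gene most like it (prior count 2 for log2 CPM). The further linker and variant histones that could be tested are also named, some of them outside this rule and after their values were seen. Of the 42048 gene names, 39790 match a RefSeq symbol (WBcel235), used for names and overlaps only. Of the lists, *hira-1*, *spt-16*, *cdc-45* and *pole-1* are names not found in the tables.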

Additional observations from a re-analysis of the deposited data

Results flagged for a closer look

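Of 40 combinations of gene and strain with 4 cultures, 5 held a culture far from its 3 companions by Dixon's ratio, where chance alone marks about 1 in 20. Double mutant culture 2, 1 of the 3 shallow libraries, accounted for 3: *hil-4* at 208.5 CPM against 120.3 to 133.5 CPM in the other cultures, *hil-5* at 199.6 CPM against 119.5 to 132.3 CPM, and *htz-1* at 128.7 CPM against 72.18 to 80.15 CPM. Quadruple mutant culture 2, the shallowest library, had 5.482 CPM of *hil-3* (15 counts) against 10.92 to 11.53 CPM. Triple mutant culture 1 had 6.098 CPM of *hil-7* (41 counts) against 0.4891 to 1.177 CPM.

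The interaction of *jmjd-5* and *jmjd-3* loss passed for *hil-7*, at -3.525 on the log2 scale (SE 1.07, edgeR adjusted p = 0.00959). N2 held 8 counts of *hil-7* in all. The call was lost in 9 of 14 fits with 1 culture left out, that without triple mutant culture 1 among them. DESeq2, totals without TMM, no filter, the libraries apart and the block kept it. It did not pass with quantile normalization, only the strains compared, the total as a term or without the shallow libraries.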

How the results depend on the processing

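Values under alternatives were compared for single genes with an adjusted p under 0.05 in the fit as reported. Genes so chosen were unlikely to change direction. Of these 499 values, 382 kept their side of the threshold, 79 gained and 38 lost a call, and 0 changed direction. Outside this choice, *hil-1* in the double mutant over N2 was 0.16 as reported and passed as lower with quantile normalization. The number of the 10 genes passing moved as follows, in the order *jmjd-5*, *jmjd-1.2*, triple, double and quadruple mutant over N2 (2, 2, 0, 0 and 0 as reported). It was 4, 1, 2, 2 and 0 with quantile normalization in limma, and 4, 6 and 5 in the first 3 when only the strains compared were fitted. With the 24 libraries kept apart it was 4, 4, 3, 1 and 0. Adding the replicate number as a block gave 4, 5, 5, 2 and 1. Deviations of same-numbered libraries of different strains correlated at a mean r of 0.0924 (-0.228 to 0.548), and 27 of 60 such pairs exceeded 0.1. Other pairs had a mean r of -0.0268 (-0.503 to 0.53), and 40 of 180 exceeded 0.1. Whether the numbers pair the samples was not settled by these values. With the total as a term the number of genes passing was 5, 2, 5, 2 and 2, and without the 3 libraries under 4000000 counts 5, 5, 3, 4 and 4. With only libraries of like total it was 0 in *jmjd-1.2*, DESeq2 gave 1 in the triple mutant (also 1 at a log2 fold change of at least 1), and library totals without TMM gave 1 in the triple and 1 in the double mutant. With 1 culture left out it was 0 to 3, 0 to 2, 0 to 1, 0 to 3 and 0 to 2. At an adjusted p under 0.05 with no minimum fold it was 4, 6, 5, 1 and 1. At a log2 fold change of at least 1 the triple mutant had 1 with the libraries apart, 1 with the block and 0 to 1 with 1 culture left out.

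Against *jmjd-5*, the quadruple mutant had 1 without the shallow libraries. The interaction with *jmjd-1.2* (0 as reported) held 1 gene with quantile normalization, 2 with the libraries apart, 5 with the block, 1 with the total as a term, 0 to 1 with 1 culture left out, and 4 at an adjusted p under 0.05. The interaction with the *jmjd-3* genes (1 as reported) held 2 with totals only, 3 with quantile normalization, 2 with the libraries apart, 4 with the block, 5 with the total as a term, 2 without the shallow libraries, 0 to 1 with 1 culture left out, and 5 at an adjusted p under 0.05. At a log2 fold change of at least 1 it held 2 with quantile normalization, 0 with only its strains, 0 with the total as a term, 0 at like totals and 0 to 1 with 1 culture left out. Why these counts moved was not tested.

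The alternatives on depth were chosen after seeing the data. Genes passing among all genes in *jmjd-5* ranged from 3657 at like totals to 9606 with the block, and in *jmjd-1.2* from 314 to 6985. Scaling by totals shifted the median of all genes over N2 by up to 0.125 and quantile normalization by up to -0.156. *hil-7* rested on 1 to 41 counts per library.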
